A study of Mus musculus with 12 samples.

Results

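The regulators of the oxidative program of skeletal muscle described here were chosen by name and are the coactivators Ppargc1a and Ppargc1b, the PPAR receptors Ppara and Ppard, the estrogen-related receptors Esrra and Esrrg, the nuclear factor Nrf1, the mitochondrial factor Tfam, the oxygen-responsive factor Hif1a and the growth factor Vegfa. They are 10 of the 36008 genes in the deposited expression table, and splicing events listed under their symbols were taken from the deposited splicing tables. The samples were whole gastrocnemius and quadriceps muscles of 6 female mice, 30 weeks old at the start, that lived for 9 weeks either on the International Space Station (Flight: mice M11, M12 and M20) or on the ground (Ground: mice M02, M03 and M08). Each mouse gave both muscles, which made 12 libraries in 4 groups of 3. All 6 mice had received injections of phosphate-buffered saline only, as the control arm of a study of an osteoporosis therapy. The sample labels give the strain as C57BL/6 and the study's methods give BALB/c, and no comparison used the strain. Muscles were taken from the left hind limb of carcasses that had been frozen and were thawed on ice.

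PGC-1 coactivators bind to transcription factors that are already on DNA, among them the PPAR and estrogen-related receptors and Nrf1, and raise the transcription of their targets. PPAR targets take up and burn fatty acids, estrogen-related receptor targets build the respiratory chain and the citric acid cycle, and Nrf1 together with the GA-binding protein drives Tfam, which packages and transcribes mitochondrial DNA. Vegfa is secreted by muscle fibers and recruits capillaries, and it answers both to Hif1a, which is stabilized when oxygen is short, and to PGC-1α. The program is known to be most active in slow and oxidative fibers.

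Expression was deposited as TPM, an abundance corrected for transcript length and brought to a common total in each library, so levels can be compared between genes within a library. In the gastrocnemius the deposited values of a library summed to 923295 to 924762 on the ground and to 937534 to 946314 after flight. In the quadriceps they summed to 952229 to 961683 and to 964792 to 966638. The 4 groups did not overlap in this sum, so it differed with both muscle and flight. Fits with TPM rescaled by median ratios are given further on. Counting depth is not kept in TPM. The quadriceps library of mouse M08 listed 18172 genes above 0, and the other 11 libraries listed 20291 to 21265. The 8 skeletal muscle markers summed to 82374 to 115502 TPM over the libraries. Markers of other cells had lower sums, at 160 to 271 TPM for 10 endothelial markers and 26.1 to 49.3 TPM for 6 macrophage markers. The 5 red blood cell markers summed to 351 to 901 TPM and 5 cardiac muscle markers to 47.6 to 116 TPM. Most of the cardiac sum was Myh6, with group means of 78.6 to 95.9 TPM, so this sum rests mainly on 1 gene. Whether heart cells were present was not tested. In each group 2 or 3 cardiac markers were under 1 TPM in every library. Cardiac markers at 0 in every library of a group numbered 1 in 3 of the 4 groups. The muscles were bulk samples, so fewer cells of a type and less RNA per cell cannot be told apart. Tests across genes were made with limma on log2(TPM + 1) over the 10481 genes with TPM above 5 in at least 1 library. All 10 regulators were among them. A gene was called at a Benjamini-Hochberg adjusted p under 0.05 and a change of over 1.5-fold, and fold changes on this scale understate those of low genes.

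No regulator's transcript level passed the test for a flight difference with 3 mice per group. None of the 10 was called in the gastrocnemius and none in the quadriceps. Over all tested genes, 24 were called in the gastrocnemius (0.229% of 10481) and 3 in the quadriceps (0.0286%). At an unadjusted p under 0.05, 1 regulator passed in the gastrocnemius (Ppara) and 3 in the quadriceps (Esrra, Ppard and Nrf1). The same threshold was passed by 15.1% and 10.8% of all genes. The Flight and Ground libraries did not overlap for the same 1 gene in the gastrocnemius and the same 3 genes in the quadriceps, against 21.0% and 17.4% of all genes. These counts turned on single libraries, since the number of regulators at an unadjusted p under 0.05 was 3 in the gastrocnemius without M08 or M12 and 1 in the quadriceps without M08, M12 or M20. For the 10 together, the median log2 fold change was -0.02 in the gastrocnemius, and the quadriceps had -0.07, beside medians of 0.02 and 0.01 over all genes. These p-values measure the spread between these mice only.

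**Figure D1:**
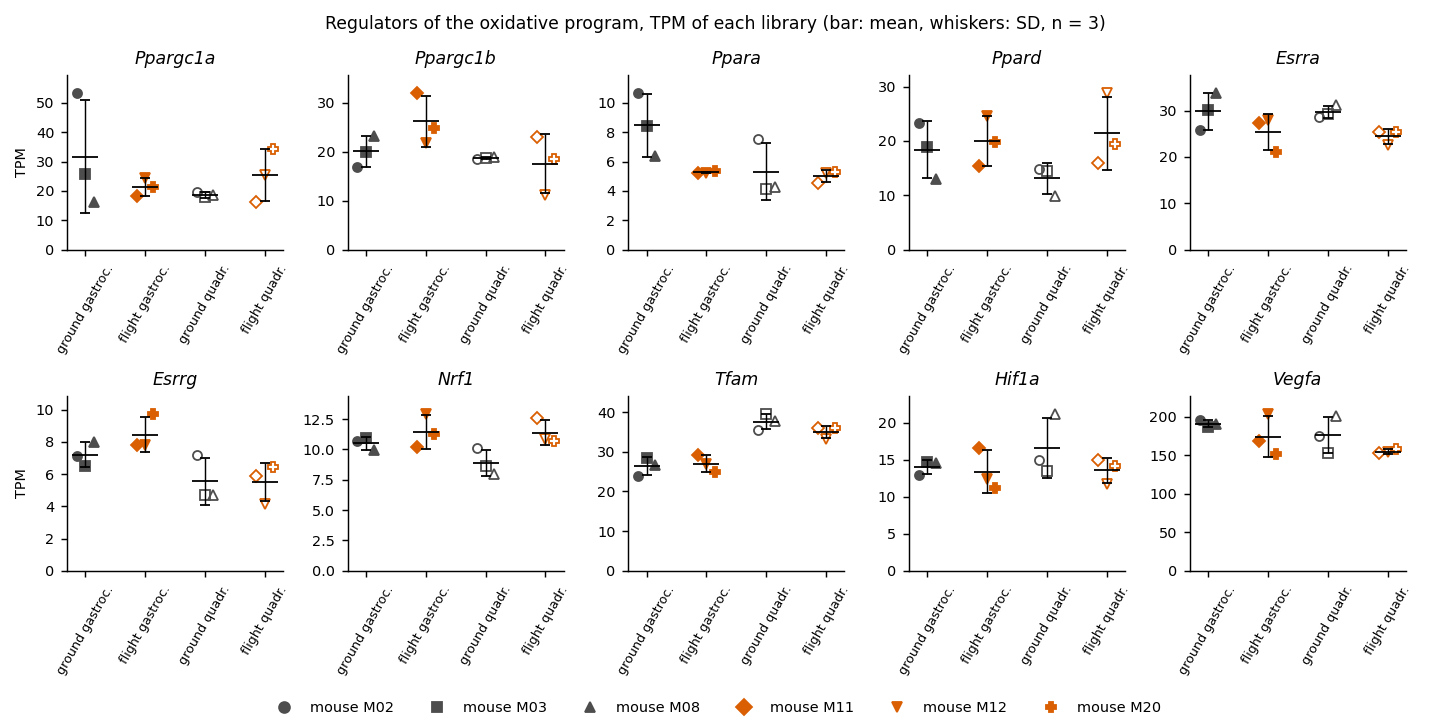
TPM of the 10 regulators, 1 panel per gene with its own axis from 0, with a point for each library of the 4 groups, a bar at the group mean and whiskers for the SD (n = 3). Vegfa reaches far higher TPM than the others, Ppara lies in a narrow band in the gastrocnemius after flight, and Tfam is higher in every quadriceps library than in any gastrocnemius library.

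By level, Vegfa stood apart from the rest. Its mean was 191 ± 4.35 TPM (SD, n = 3) in the gastrocnemius on the ground, and in all 4 groups its lowest library was above the highest library of the next gene. Below it the order was less clear, since 6 of the 9 pairs of neighbours in rank overlapped in the gastrocnemius on the ground, 6 after flight, 5 in the quadriceps on the ground and 7 after flight. Ppargc1a, Esrra and Tfam came next in the gastrocnemius on the ground, and Tfam was the second gene in the other 3 groups. Esrrg was the lowest of the 10 in the gastrocnemius on the ground, at 7.20 ± 0.764 TPM, overlapping with Ppara above it. Ppara was the lowest in the other 3 groups and was separate from the next gene in the gastrocnemius after flight only.

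Ppargc1a encodes PGC-1α, the coactivator that rises in muscle with exercise. In the gastrocnemius its TPM was 53.2, 25.8 and 16.1 in mice M02, M03 and M08 on the ground, and 18.3, 24.5 and 21.2 in M11, M12 and M20 after flight. In the quadriceps the values were 19.8, 17.8 and 18.4 on the ground and 16.4, 25.4 and 34.3 after flight. One gastrocnemius library, that of M02, was far above all others, and the groups overlapped in both muscles. Flight over Ground, the log2 fold change was -0.39 (SE 0.369, adjusted p = 0.649) in the gastrocnemius and 0.36 (SE 0.240, adjusted p = 0.608) in the quadriceps. Without M02 the gastrocnemius value turned to 0.05 (adjusted p = 0.940), so its sign rested on that mouse.

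Ppargc1b encodes PGC-1β, a second coactivator that drives mitochondrial genes and capillary growth. Its gastrocnemius TPM was 16.9, 20.04 and 23.2 on the ground and 31.9, 21.7 and 24.9 after flight. The quadriceps held 18.4, 18.7 and 18.8 on the ground, and 23.1, 11.1 and 18.5 after flight. The 3 quadriceps libraries on the ground were nearly equal, and those after flight spread to both sides of them. In the gastrocnemius 2 of 3 Flight values lay above the highest Ground value. Its log2 fold change was 0.36 (SE 0.164, adjusted p = 0.354) in the gastrocnemius and -0.14 (SE 0.237, adjusted p = 0.857) in the quadriceps.

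Ppara, the fatty acid receptor that turns on genes of fat oxidation, had the lowest unadjusted p of the 10 in the gastrocnemius. Its TPM was 10.7, 8.40 and 6.35 in M02, M03 and M08 on the ground and 5.21, 5.24 and 5.34 in M11, M12 and M20 after flight. All Flight libraries were below all Ground libraries, and the Flight values lay closer together than in any other group. The means were 8.47 ± 2.16 and 5.26 ± 0.0657 TPM (SD, n = 3). The log2 fold change was -0.57 (SE 0.169, 95% confidence interval -0.97 to -0.18), with an unadjusted p of 0.0104 and an adjusted p of 0.217 in limma. Quadriceps TPM was 7.54, 4.14 and 4.26 on the ground and 4.53, 5.22 and 5.27 after flight, where the groups overlapped and the log2 fold change was -0.03 (SE 0.224, adjusted p = 0.968). In the gastrocnemius the sums of 9 slow fiber markers moved beside Ppara, from 1743 to 2126 TPM on the ground to 1072 to 1295 TPM after flight, and their part in the Ppara values was not tested.

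The stretch before the Ppara start site is shown because Ppara differed between the muscles, as given further on, and because it carried the only match to the Nrf1 motif CGCATGCG, which reads the same on both strands, among 14 promoter windows of 9 of the regulators. The windows run from 250 bases before to 50 bases after a start site in RefSeq on GRCm38.p6, and 1.87% of the 32851 promoters in that set hold the motif. In the line below, from chr15:85735716-85735775 on the plus strand, capitals mark the motif, 30 to 23 bases before the start:
Ppara promoter: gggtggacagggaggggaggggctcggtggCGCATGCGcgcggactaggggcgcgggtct
The match is a description of these letters only. Of the other motifs searched on both strands, the HIF core ACGTG was in 5 of the 14 windows and in 19.6% of all promoters. These were 1 window each of Ppargc1a, Ppard, Esrrg, Hif1a and Vegfa. For Vegfa it was in the window at chr17:46025114-46025413 and not in that at chr17:46032328-46032627. For Esrrg it was in the window at chr1:187651508-187651807 only. The estrogen-related receptor element TCAAGGTCA (0.423% of promoters) and the cyclic AMP element TGACGTCA (1.79%) were in none of the 14 windows. In the Hif1a window 2 of the 3 matches to ACGTG lie on overlapping bases of opposite strands.

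Ppard, the PPAR that prevails in skeletal muscle and raises fatty acid use, was the only regulator whose quadriceps change exceeded 1.5-fold. Quadriceps TPM was 14.9, 14.5 and 9.89 on the ground and 15.9, 28.8 and 19.5 after flight. All Flight libraries were above all Ground libraries, with M12 highest and M11 only just above. The means were 13.1 ± 2.79 and 21.4 ± 6.65 TPM (SD, n = 3), and the log2 fold change was 0.65 (SE 0.241, unadjusted p = 0.0312, adjusted p = 0.426). In the gastrocnemius TPM was 23.4, 18.9 and 12.9 on the ground and 15.5, 24.7 and 19.8 after flight. The groups overlapped there, and the log2 fold change was 0.13 (SE 0.230, adjusted p = 0.831). Within a group the mice kept 1 order in both muscles, with M08 the lowest on the ground and M12 the highest after flight.

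Esrra, the receptor that partners PGC-1α at respiratory chain genes, had the smallest unadjusted p of the 10 in the quadriceps. Its quadriceps TPM was 28.7, 29.3 and 31.3 on the ground and 25.3, 22.6 and 25.3 after flight. The Flight libraries were all below the Ground libraries, with means of 24.4 ± 1.58 and 29.7 ± 1.34 TPM (SD, n = 3). The log2 fold change was -0.28 (SE 0.0892, unadjusted p = 0.0176, adjusted p = 0.378). In the gastrocnemius TPM was 25.8, 30.03 and 33.7 on the ground and 27.2, 27.9 and 21.0 after flight, and the groups overlapped. The gastrocnemius log2 fold change was -0.23 (SE 0.141, adjusted p = 0.475).

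Esrrg, the receptor of the same family that marks oxidative muscle, was present at 4.16 to 9.71 TPM. Gastrocnemius values were 7.10, 6.50 and 8.01 TPM on the ground and 7.83, 7.83 and 9.71 TPM after flight. Quadriceps values were 7.20, 4.71 and 4.72 TPM on the ground and 5.91, 4.16 and 6.46 TPM after flight. Both pairs of groups overlapped. Fitted on the log2 scale, the change was 0.20 (SE 0.126, adjusted p = 0.481) in the gastrocnemius and -0.0032 (SE 0.217, adjusted p = 0.997) in the quadriceps.

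Nrf1, the nuclear factor that switches on respiratory genes and Tfam, was measured at 10.7, 10.9 and 9.92 TPM in the gastrocnemius on the ground and at 10.2, 12.9 and 11.3 TPM after flight. In the quadriceps the values were 10.1, 8.64 and 7.97 TPM on the ground and 12.6, 10.9 and 10.7 TPM after flight. All quadriceps libraries after flight were above those on the ground, and the gastrocnemius groups overlapped. In limma the log2 fold change was 0.33 (SE 0.130, unadjusted p = 0.0400, adjusted p = 0.445) in the quadriceps and 0.11 (SE 0.110, adjusted p = 0.680) in the gastrocnemius.

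Tfam, which coats mitochondrial DNA and starts its transcription, was not called after flight in either muscle. Gastrocnemius TPM was 24.0, 28.4 and 26.7 on the ground and 29.1, 27.0 and 24.8 after flight. Quadriceps TPM was 35.5, 39.4 and 37.8 on the ground and 35.9, 33.2 and 36.0 after flight. Flight and Ground overlapped within each muscle, whereas the muscles did not overlap with each other. The log2 fold change was 0.03 (SE 0.101, adjusted p = 0.908) in the gastrocnemius and -0.10 (SE 0.0821, adjusted p = 0.677) in the quadriceps.

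A stretch of the Tfam promoter is shown since Tfam did not overlap between the muscles, and its window held the only match among the regulators to CCGGAAG, the core bound by the GA-binding protein. In the line below, from chr10:71238073-71238102 on the minus strand of GRCm38.p6, capitals mark the motif, 47 to 41 bases before the RefSeq start. Searched on both strands, it is in 8.86% of all promoters:
Tfam promoter: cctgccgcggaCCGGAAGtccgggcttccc

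Hif1a, the oxygen-regulated factor that is controlled mostly through protein stability, was at 12.9, 14.7 and 14.5 TPM in the gastrocnemius on the ground and at 16.7, 12.4 and 11.2 TPM after flight. Quadriceps values were 15.0, 13.5 and 21.1 TPM on the ground and 15.0, 11.7 and 14.1 TPM after flight. The groups overlapped in both muscles, and the highest value was that of the M08 quadriceps, the library with the fewest genes above 0. Its log2 fold change was -0.08 (SE 0.147, adjusted p = 0.834) in the gastrocnemius and -0.25 (SE 0.181, adjusted p = 0.645) in the quadriceps.

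Vegfa, the main growth factor for capillaries, was at 196, 187 and 190.3 TPM in the gastrocnemius on the ground and at 168, 203 and 151 TPM after flight. In the quadriceps it was at 175, 153 and 200.3 TPM on the ground and at 153, 154 and 158 TPM after flight. Flight libraries of the gastrocnemius lay on both sides of the tight Ground group, and those of the quadriceps lay together at the low end of the Ground range. The log2 fold change was -0.14 (SE 0.110, adjusted p = 0.566) in the gastrocnemius and -0.18 (SE 0.103, adjusted p = 0.564) in the quadriceps. Endothelial marker sums were 237 to 247 TPM on the ground and 210 to 271 TPM after flight in the gastrocnemius, and 196 to 228 TPM and 160 to 233 TPM in the quadriceps, overlapping in both.

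**Figure D2:**
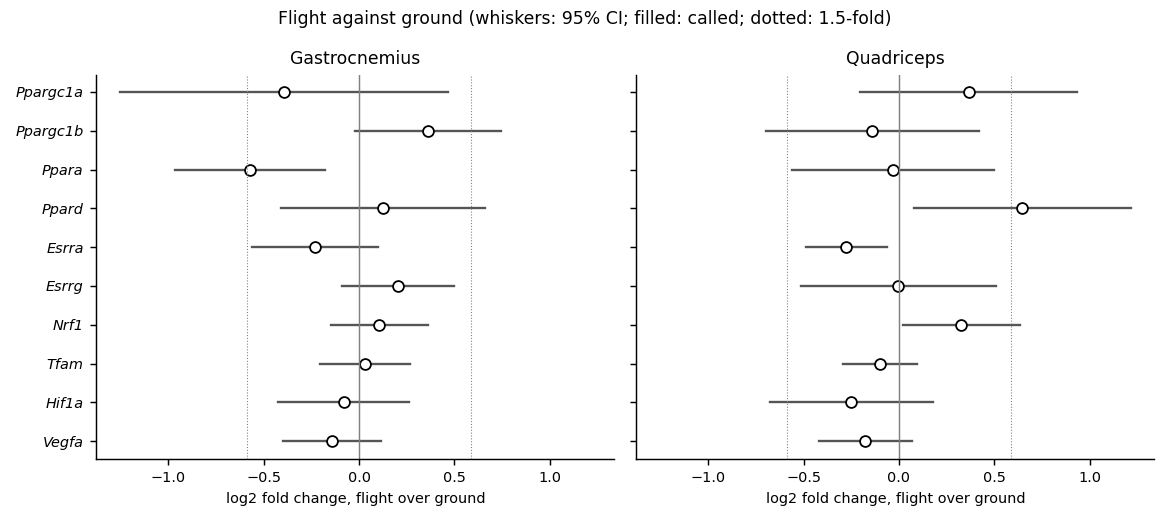
Log2 fold change of the 10 regulators, Flight against Ground, on the log2(TPM + 1) scale in the gastrocnemius and the quadriceps, with the 95% confidence interval from limma as a line and dotted lines at 1.5-fold. The intervals of Ppara in the gastrocnemius and of Esrra, Ppard and Nrf1 in the quadriceps do not reach 0, and none of the 20 values passed the adjusted threshold.

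Whether flight acted differently in the muscles was tested as an interaction, in a fit over the 12 libraries with the mouse as a block. None of the regulators was called, as was none of all tested genes (0 of 10481, 0%). At an unadjusted p under 0.05 the regulators numbered 3, beside 5.09% of all genes. Ppard had a difference of -0.52 on the log2 scale, gastrocnemius minus quadriceps (SE 0.135, unadjusted p = 0.00444, adjusted p = 0.811). For Ppargc1b the difference was 0.50 (SE 0.175, unadjusted p = 0.0203, adjusted p = 0.951), and for Ppara -0.54 (SE 0.191, unadjusted p = 0.0215, adjusted p = 0.957). For Ppargc1a it was -0.76 (unadjusted p = 0.0762), and -0.35 without M02. The count of 3 depended on the mouse M12, without which it was 1, and on the block, without which it was 0.

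The muscles themselves differed for some of the regulators. On the ground 1 of 10 was called (Ppara, higher in the gastrocnemius) against 3.20% of all genes, 3 had an unadjusted p under 0.05 against 30.5%, and 1 did not overlap between the muscles (Tfam) against 33.8%. After flight 1 was called (Ppargc1b, higher in the gastrocnemius) against 3.34%, 3 had an unadjusted p under 0.05 against 30%, and 2 did not overlap (Tfam and Esrrg) against 30.4%. With TPM rescaled by median ratios, 7 regulators had an unadjusted p under 0.05 on the ground beside 25.6% of all genes, and 4 after flight beside 25.9%. The median of all genes was itself shifted, to -0.12 on the ground and -0.11 after flight in the gastrocnemius relative to the quadriceps, so values relative to that median are given for the regulators described next.

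Gastrocnemius TPM of Ppara exceeded quadriceps TPM in 6 of 6 mice, with ratios of 1.00 to 2.03. On the ground the log2 difference was 0.60 (SE 0.135, adjusted p = 0.0305), or 0.72 relative to the median of all genes, and after flight it was 0.06 (adjusted p = 0.798). The 3 flown mice had ratios of 1.15, 1.00 and 1.01, all below the ratios of the 3 ground mice, 1.41, 2.03 and 1.49. The ground call was lost without any 1 of the ground mice (adjusted p = 0.0978 without M02, 0.129 without M03 and 0.0823 without M08), without the filter on low values (0.0814) and without the mouse block (0.0840).

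Ppargc1b showed the reverse order of the 2 conditions. After flight its log2 difference was 0.59 (SE 0.124, adjusted p = 0.0212), or 0.70 relative to the median of all genes, and on the ground it was 0.09 (adjusted p = 0.664). The gastrocnemius was higher in 5 of 6 mice, the exception being M02 with a ratio of 0.917, and the highest ratio was 1.96 in M12. The groups still overlapped, since M11 had high values in both muscles. This call too was lost without any 1 of the flown mice (adjusted p = 0.0637 without M11, 0.124 without M12 and 0.0555 without M20), without the filter (0.0806) and without the mouse block (0.0964).

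Tfam was lower in the gastrocnemius in 6 of 6 mice, by a ratio of 0.674 to 0.814. The log2 difference was -0.50 on the ground (SE 0.0833, adjusted p = 0.0149) and -0.37 after flight (SE 0.0833, adjusted p = 0.0268), under 1.5-fold in both. Relative to the median of all genes the values were -0.38 and -0.26. The highest gastrocnemius library (29.1 TPM) was below the lowest quadriceps library (33.2 TPM) over all 12. With a ground mouse left out the ground value had adjusted p of 0.0825, 0.0711 and 0.0676 (M02, M03 and M08), and with a flown mouse left out the flight value had 0.0769, 0.0988 and 0.120 (M11, M12 and M20). The flight value also had an adjusted p of 0.0560 without the filter on low values, 0.0616 with rescaled TPM and 0.0513 in limma without a trend. Lower in the gastrocnemius was the commoner direction, since 32.3% of all genes had a positive difference on the ground and 33.3% after flight. The share of all genes that keep the muscles apart over all 12 libraries was not counted.

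Ppard had a log2 difference of 0.44 on the ground (SE 0.0951, adjusted p = 0.0272), under 1.5-fold, and of -0.08 after flight (adjusted p = 0.630), or 0.56 and 0.03 relative to the median of all genes. Its adjusted p on the ground was 0.276 without the mouse block, 0.0754 without the filter on low values and 0.133, 0.0856 and 0.0823 without M02, M03 and M08. Esrrg had a difference of 0.34 on the ground (adjusted p = 0.178) and 0.55 after flight (SE 0.156, adjusted p = 0.0532), where all gastrocnemius libraries were above all quadriceps libraries. Relative to the median of all genes these were 0.46 and 0.66. The gastrocnemius was higher in 5 of 6 mice for Esrrg and Nrf1, in 4 for Ppard, Esrra and Vegfa, and in 3 for Ppargc1a and Hif1a. Such counts of mice, here and for the regulators above, were not made over all genes. For Esrra, Nrf1, Hif1a and Vegfa the log2 differences lay between -0.20 and 0.22 in both conditions, with adjusted p from 0.245 to 0.994, or between -0.08 and 0.34 relative to the median of all genes. Ppargc1a had 0.57 on the ground (adjusted p = 0.186) and -0.19 after flight (adjusted p = 0.674), or 0.68 and -0.08 relative to that median. Adipocyte markers differed between the muscles on the ground. Their sums there were 188 to 270 TPM in the gastrocnemius and 334 to 635 TPM in the quadriceps. After flight the sums overlapped, at 186 to 249 and 210 to 291 TPM. The part of these markers in the values above was not tested.

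**Figure D3:**
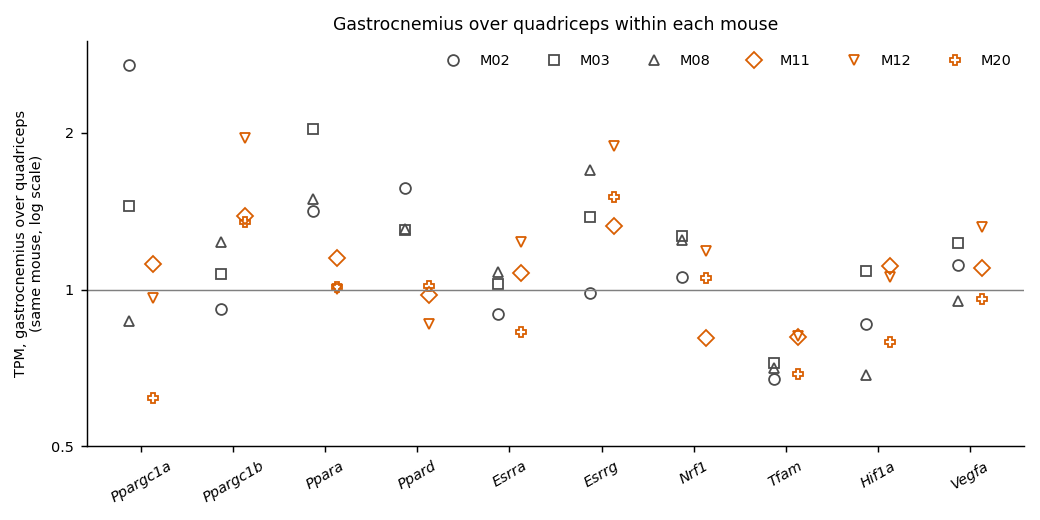
Ratio of gastrocnemius to quadriceps TPM within each mouse for the 10 regulators on a log axis, with ground and flown mice marked apart and a line at equal levels. All 6 Tfam ratios lie below the line, between 0.674 and 0.814, and the Ppara ratios of the flown mice lie nearer to the line than those of the ground mice.

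The cofactors and kinases that work with the regulators were given by 45 genes, of which 44 were tested. None was called after flight in either muscle. In the gastrocnemius 6 were higher and 1 lower at an unadjusted p under 0.05, beside 15.1% of all genes. The median log2 fold change was 0.09. In the quadriceps 5 were higher and 2 lower, beside 10.8% of all genes, with a median of 0.04. Perm1, a muscle regulator induced by PGC-1 and estrogen-related receptors, had the smallest p of the list in both muscles: 60.2 ± 1.82 TPM on the ground and 42.8 ± 5.05 TPM after flight in the gastrocnemius (log2 fold change -0.49, adjusted p = 0.126), and 46.7 ± 3.19 and 37.8 ± 0.643 TPM in the quadriceps (-0.30, adjusted p = 0.344). Its Flight libraries were below its Ground libraries in both muscles. In the gastrocnemius Ncoa1, a receptor coactivator, had a log2 fold change of 0.39 (adjusted p = 0.155), Prkag3, an AMP kinase subunit, of 0.42 (adjusted p = 0.183), and Crtc3, a CREB coactivator, of 0.37 (adjusted p = 0.193). In the quadriceps Creb1, an activator of Ppargc1a transcription, had 0.38 (adjusted p = 0.347). Nrip1, a corepressor of these receptors, had values of 0.20 and 0.21, Rxrg, a partner of the PPARs, of 0.14 and 0.21, and Gabpa of -0.03 and -0.16 in the gastrocnemius and the quadriceps, with adjusted p from 0.509 to 0.938.

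PPAR targets were lower after flight in both muscles by their median. Of 30 listed genes 26 were tested, and in the gastrocnemius 23 were lower and 3 higher, with a median of -0.26. There 2 were called and 15 had an unadjusted p under 0.05, all lower, beside 0.229% and 15.1% of all genes. In the quadriceps 24 were lower and 2 higher, with a median of -0.26. None was called there, and 8 had an unadjusted p under 0.05, all lower, beside 10.8% of all genes. The summed TPM of the list went from 3676 to 3814 on the ground to 3179 to 3309 after flight in the gastrocnemius, and from 3583 to 3917 to 3018 to 3459 in the quadriceps, without overlap in either.

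Fabp3, the fatty acid carrier of muscle, fell in the gastrocnemius. It was at 353, 329 and 389.6 TPM on the ground and 193, 212 and 175 TPM after flight, with no overlap (log2 fold change -0.88, SE 0.0988, adjusted p = 0.0361). Acaa2, a thiolase of mitochondrial fat oxidation, fell from 119 ± 8.40 to 73.6 ± 2.84 TPM (SD, n = 3), which was -0.68 on the log2 scale (SE 0.0820, adjusted p = 0.0361). Both calls held without M11 and were lost without any other gastrocnemius library, with adjusted p for Fabp3 of 0.145, 0.114, 0.0672, 0.0769 and 0.145 and for Acaa2 of 0.111, 0.197, 0.101, 0.119 and 0.181 without M02, M03, M08, M12 and M20. They were lost too without the filter on low values (0.155 and 0.106) and in limma without a trend (0.0804 for both). In the quadriceps Fabp3 had a log2 fold change of -0.67 and Acaa2 of -0.51 (adjusted p = 0.274 for both), and Acsl1, which activates fatty acids, had -0.57 (adjusted p = 0.274). Lpl, the lipase that frees fatty acids from plasma lipids, had -0.47 in the gastrocnemius (adjusted p = 0.0963), and Hadhb, a subunit of the trifunctional protein, had -0.55 there (adjusted p = 0.103) and -0.35 in the quadriceps (adjusted p = 0.299).

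Other PPAR targets chosen for their role had no such call. Pdk4, the kinase that closes pyruvate dehydrogenase, had -0.0074 on the log2 scale in the gastrocnemius (adjusted p = 0.993) and -0.29 in the quadriceps (adjusted p = 0.663). Cpt1b, the gate for fatty acids into mitochondria, had -0.11 and -0.19 (adjusted p = 0.675 and 0.559). Ucp3, an uncoupling protein family member, had 0.30 and 0.41 (adjusted p = 0.692 and 0.670). Its spread was by mouse, with 166 and 185 TPM in the 2 muscles of M12 and 72.7 and 69.7 TPM in those of M11, which were both flown. Angptl4, a lipase inhibitor, was not tested, having 1.45 to 3.97 TPM over the libraries. The quadriceps values of this list stood beside 7 of 7 tested adipocyte markers that were lower after flight at an unadjusted p under 0.05 (median log2 fold change -1.09). That threshold was passed by 10.8% of all genes. The gastrocnemius values stood beside the slow fiber markers, of which 9 of 9 were lower (median -0.56) and 3 were called, against 0.229% of all genes. The called slow fiber markers were Myl2 (-1.33) and Myl3 (-0.90), myosin light chains of slow fibers, and Atp2a2 (-0.88), the slow calcium pump. These calls too ended without M02 (adjusted p = 0.0971, 0.0646 and 0.145 for Myl2, Myl3 and Atp2a2), M03 (0.114, 0.114 and 0.192), M12 (0.0778, 0.0834 and 0.0834) or M20 (0.145 for each), and without M08 for Myl2 (0.0530) and Atp2a2 (0.0611). They ended as well without the filter on low values (0.204, 0.106 and 0.155 for Myl2, Myl3 and Atp2a2), in limma without a trend (0.0654, 0.0654 and 0.0804) and in 1 fit over all 12 libraries (0.0753, 0.163 and 0.112). Whether fat cells or slow fibers took part in the PPAR target values was not tested.

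Estrogen-related receptor targets of the mitochondrion, 34 tested of 34, leaned the same way. In the gastrocnemius 30 were lower and 4 higher, with a median of -0.18. At an unadjusted p under 0.05, 12 were lower and 1 higher, beside 15.1% of all genes. In the quadriceps 29 were lower and 5 higher, with a median of -0.13. There 12 were lower at that threshold, beside 10.8% of all genes. None was called in either muscle. Mb, the oxygen store of muscle, had 1513 ± 160 TPM on the ground and 1168 ± 36.2 TPM after flight in the gastrocnemius (log2 fold change -0.37, adjusted p = 0.156), and 1308 ± 130 and 893 ± 72.5 TPM in the quadriceps (-0.55, adjusted p = 0.244). Uqcrfs1, the Rieske protein of complex III, had -0.57 in the gastrocnemius (adjusted p = 0.156) and -0.44 in the quadriceps (adjusted p = 0.298), and Ckmt2, the mitochondrial creatine kinase, had -0.38 in the gastrocnemius (adjusted p = 0.124).

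The machinery that copies and transcribes mitochondrial DNA beside Tfam gave 15 tested genes of 18, with medians of -0.05 and -0.03. None was called. At an unadjusted p under 0.05 only Slirp, which stabilizes mitochondrial mRNAs, passed in the gastrocnemius (-0.25, adjusted p = 0.273), beside 15.1% of all genes. In the quadriceps the helicase Twnk (-0.34, adjusted p = 0.414) and the terminator family member Mterf3 (0.22, adjusted p = 0.429) passed, beside 10.8% of all genes. The 13 mRNAs of the mitochondrial genome, which Tfam helps to transcribe, had a median of 0.31 in the gastrocnemius, with 10 higher and 2 lower at an unadjusted p under 0.05 and none called. mt-Nd2 had 0.49 and mt-Nd1 0.47 (adjusted p = 0.0945 for both), subunits of complex I. Their sum was 154236 to 176225 TPM on the ground and 202645 to 220355 TPM after flight, without overlap. TPM is a share of the library, and the median of all genes there was 0.02. Some of these mRNAs share sequence with nuclear copies, so their values are less certain. In the quadriceps the median was 0.08, none passed an unadjusted p of 0.05, and the sums overlapped (159658 to 184829 and 166411 to 193419 TPM). In the test of the difference between the muscles 8 of the 13 had an unadjusted p under 0.05, beside 5.09% of all genes. All 8 had the larger value in the gastrocnemius, and none was called. The 13 come from the same genome and make up a large share of each library, so they are not independent of each other.

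Around Hif1a, 8 partners and oxygen sensors of 9 were tested, and medians were -0.12 in the gastrocnemius and -0.04 in the quadriceps. Epas1, the HIF-2α gene, had log2 fold changes of -0.0042 and -0.0084 (adjusted p = 0.986 and 0.984), and Arnt, the shared partner, of -0.09 and -0.03 (adjusted p = 0.692 and 0.916). Egln3, a prolyl hydroxylase that marks HIF for degradation, had -0.50 in the gastrocnemius (12.9 ± 3.36 to 8.81 ± 2.05 TPM, adjusted p = 0.327) and -0.04 in the quadriceps. Of 28 HIF targets 25 were tested and none was called. In the gastrocnemius 1 was higher and 3 lower at an unadjusted p under 0.05, beside 15.1% of all genes, with a median of -0.05. In the quadriceps 2 were higher and 3 lower, beside 10.8% of all genes, with a median of -0.07. Pgk1, a glycolytic kinase, was at 268 ± 15.5 TPM on the ground and 156 ± 54.7 TPM after flight in the gastrocnemius (-0.83, adjusted p = 0.175), and at 331 ± 14.1 and 217 ± 26.3 TPM in the quadriceps (-0.61, adjusted p = 0.224). Pgk1 shares sequence with processed pseudogenes, so its values are less certain.

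Around Vegfa, 5 of 10 listed family members and receptors were tested. None was called, and the gastrocnemius median was 0.0055 and the quadriceps median -0.11. Nrp2, a coreceptor, was the only one with an unadjusted p under 0.05, in the gastrocnemius, beside 15.1% of all genes there. It was at 6.87 ± 0.445 TPM on the ground and 9.32 ± 0.198 TPM after flight (0.39, adjusted p = 0.166). Vegfb had -0.17 and -0.11 (adjusted p = 0.518 and 0.675). The receptor genes Flt1, at 0.0055 and -0.01, and Kdr, at -0.02 and -0.22, had adjusted p from 0.811 to 0.991.

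**Figure D4:**
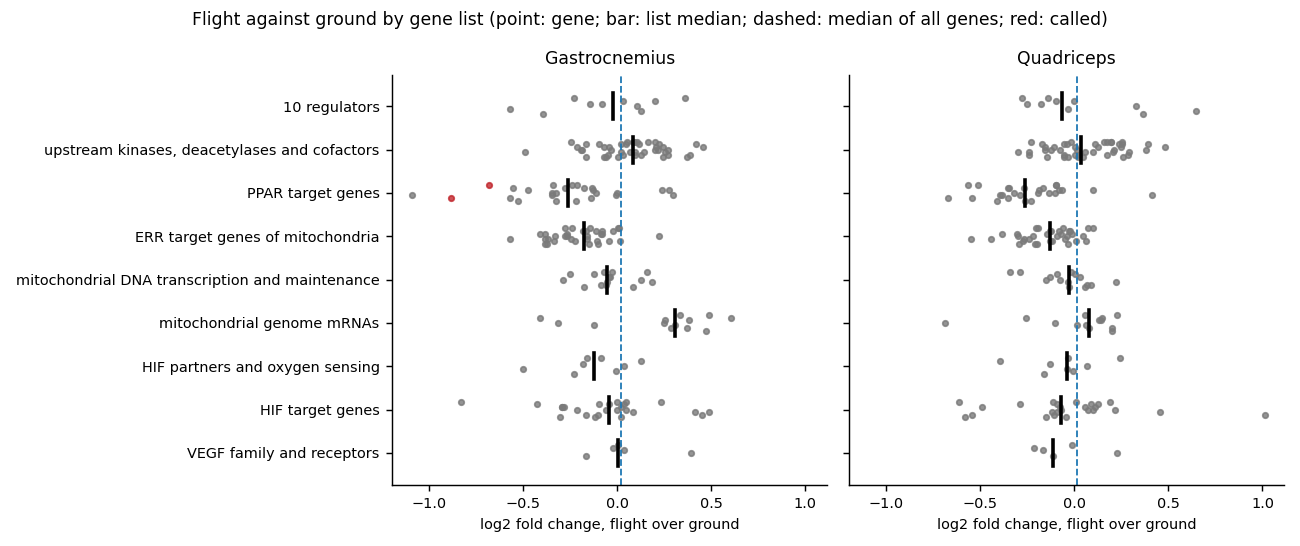
Log2 fold changes, Flight against Ground, of the tested genes of each pathway list in the gastrocnemius and the quadriceps, a point per gene (red where called) with a bar at the list median and a dashed line at the median of all genes. PPAR targets (medians of -0.26 in both muscles) and estrogen-related receptor targets (-0.18 and -0.13) sit below 0, while the mitochondrial genome mRNAs have a median of 0.31 in the gastrocnemius and 0.08 in the quadriceps.

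Between the muscles, list genes were called in both directions. On the ground Egln3 was higher in the gastrocnemius (log2 difference 0.64, adjusted p = 0.0195), as was the HIF target Ndrg1 (0.67, adjusted p = 0.0142), while the HIF target Higd1a was lower (-0.70, adjusted p = 0.00828), as were mt-Nd3 (-1.29, adjusted p = 0.00655) and mt-Co2 (-0.69, adjusted p = 0.0384). After flight Ndrg1 was higher (0.71, adjusted p = 0.00983), as was mt-Atp8 (0.95, adjusted p = 0.00417), and cytochrome c, Cycs, was lower (-0.69, adjusted p = 0.00601), as were Slirp (-0.67, adjusted p = 0.00543) and mt-Nd3 (-1.44, adjusted p = 0.00417). Cycs and Slirp pointed the same way as Tfam, which was the commoner direction after flight. Over all genes 245 were called lower in the gastrocnemius and 105 higher, and 33.3% had a positive difference. Of the 13 mitochondrial genome mRNAs 9 were higher and 4 lower after flight, with a median of 0.18. Among markers, Mylpf, a fast fiber light chain, was lower in the gastrocnemius in both conditions (-0.87 and -0.90), and Adipoq, Cidec, Fabp4 and Retn, of adipocytes, were lower on the ground (-1.22, -1.05, -0.89 and -1.43). Without the filter on low values, the ground calls of mt-Nd3 (adjusted p = 0.0553), mt-Co2 (0.155), Egln3 (0.0713), Ndrg1 (0.0588), Mylpf (0.0562), Adipoq (0.118), Cidec (0.102), Fabp4 (0.0575) and Retn (0.0868) ended, while that of Higd1a and the flight calls of list genes did not. Without the mouse block, those of mt-Co2 (0.0955), Egln3 (0.0624), Adipoq (0.0649) and Cidec (0.0618) ended, in limma without a trend those of mt-Co2 (0.0759) and Adipoq (0.0552), and with rescaled TPM that of mt-Co2 (0.0729). Leaving out 1 mouse ended the ground calls of Egln3 (adjusted p = 0.0972, 0.0685 and 0.0672 without M02, M03 and M08), of Ndrg1 (0.0714 without M03 and 0.0640 without M08), of Higd1a (0.0637 without M03 and 0.0532 without M08), and of mt-Co2 (0.136, 0.0667, 0.170, 0.0509 and 0.0557 without M02, M03, M08, M11 and M20). Without M02, M03 and M08 in turn, adjusted p was 0.111, 0.0875 and 0.119 for Adipoq, 0.0986, 0.0825 and 0.113 for Cidec and 0.0871, 0.0812 and 0.0819 for Retn, and for Fabp4 it was 0.0522 without M02 and 0.0553 without M03. Leaving out M12 ended the flight calls of Cycs (0.0535), Slirp (0.0518) and Ndrg1 (0.0745).

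Splicing events of the regulators were few. Of 2423 skipped or mutually exclusive exon events listed in the gastrocnemius and 2416 in the quadriceps, 6 in each belonged to the regulators, 5 of Vegfa and 1 of Hif1a. The gastrocnemius kept all 6 after the filter on junction reads and the quadriceps kept 5. None was called between Flight and Ground at an adjusted p under 0.05 and a difference of over 5% in percent spliced in (PSI), beside 8 of 2118 events in the gastrocnemius (0.378%) and 0 of 2062 in the quadriceps (0%). None had an unadjusted p under 0.05, beside 9.49% and 7.61% of all events. With its own test the study reported differential events in both muscles at the same FDR and PSI thresholds. The test used here called few events or none, so the lack of a call for the regulators does not show unchanged splicing. The listed junction reads of a sample summed to 777760 to 1246850, and the tables name no mouse for the samples of a group.

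The Vegfa events all concern exons 6 and 7, which encode the basic, heparin-binding stretches that hold the protein to the cell surface and matrix. Transcripts with neither exon encode the most diffusible form. The gene lies at chr17:46016993-46032369 on the minus strand of GRCm38, exon 6 at chr17:46022277-46022348 (72 bases) and exon 7 at chr17:46020991-46021122 (132 bases), both coding. Of 8 coding transcripts in GENCODE vM21, 2 hold both exons, 2 hold exon 7 only, 2 hold neither, 1 holds exon 6 only, and 1 holds exon 7 with a shorter exon 6. The exons are printed because their use is what the events measure, with capitals marking the 18 bases that the shorter exon 6 lacks:
Vegfa exon 6: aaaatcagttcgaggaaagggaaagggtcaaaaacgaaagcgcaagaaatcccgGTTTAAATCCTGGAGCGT
Vegfa exon 7: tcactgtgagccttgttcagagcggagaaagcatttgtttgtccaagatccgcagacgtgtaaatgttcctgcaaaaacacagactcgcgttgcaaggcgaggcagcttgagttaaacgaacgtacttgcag

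The inclusion reads of exon 6 against exon 8, of the shorter exon 6 and of the mutually exclusive event were equal in all 12 samples. All of them count the junction from exon 5 to exon 6. The event against exon 8 and the mutually exclusive event add the same second junction, from exon 6 to exon 8, so their equality is built in, whereas the shorter exon 6 adds its own junction to exon 7. Unless these second junctions were equal in every sample, this leaves no listed read for exon 6 joined to exon 8 or for the shorter exon 6. The events therefore rest on the junctions from exon 5 to exon 6, 7 or 8, and on the junctions from 6 to 7 and from 7 to 8, and are not independent of each other. The junction from 7 to 8 is also made by transcripts that hold both exons, so the mutually exclusive event does not measure a choice between them.

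Reads leaving exon 5 were therefore pooled over the junctions. In the gastrocnemius on the ground the share that went to exon 6 was 44.6% (95% Wilson interval 32.4 to 57.6, of 56 reads), 39.0% (28.8 to 50.1, of 77) and 26.2% (17.02 to 38.0, of 65). After flight it was 33.8% (24.0 to 45.1, of 74), 45.6% (35.0 to 56.5, of 79) and 54.2% (42.7 to 65.2, of 72). The groups overlapped, and the intervals, which cover counting error only, are as wide as the differences between samples. The means were 36.6 ± 9.47% and 44.5 ± 10.2% (SD, n = 3; two-sided exact permutation p = 0.4, where 0.1 is the smallest that 3 against 3 allow).

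In the quadriceps the share to exon 6 was 32.0%, 41.7% and 42.1% on the ground, of 50, 60 and 19 reads, and 38.1%, 47.3% and 38.5% after flight, of 42, 55 and 52 reads. These groups overlapped too, with means of 38.6 ± 5.71% and 41.3 ± 5.20% (exact permutation p = 0.6). The direct junction to exon 8, made by the diffusible form, took the smallest share. Its means were 5.49 ± 0.946% on the ground and 6.64 ± 1.03% after flight in the gastrocnemius (exact permutation p = 0.2), and 10.3 ± 1.85% and 8.72 ± 6.03% in the quadriceps (exact permutation p = 0.8). Exon 7 took the rest, at 57.9 ± 10.1% and 48.9 ± 9.75% in the gastrocnemius and 51.1 ± 4.42% and 50.002 ± 4.38% in the quadriceps. At 19 to 79 reads per sample a shift of the size of the sample spread was not detectable.

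**Figure D5:**
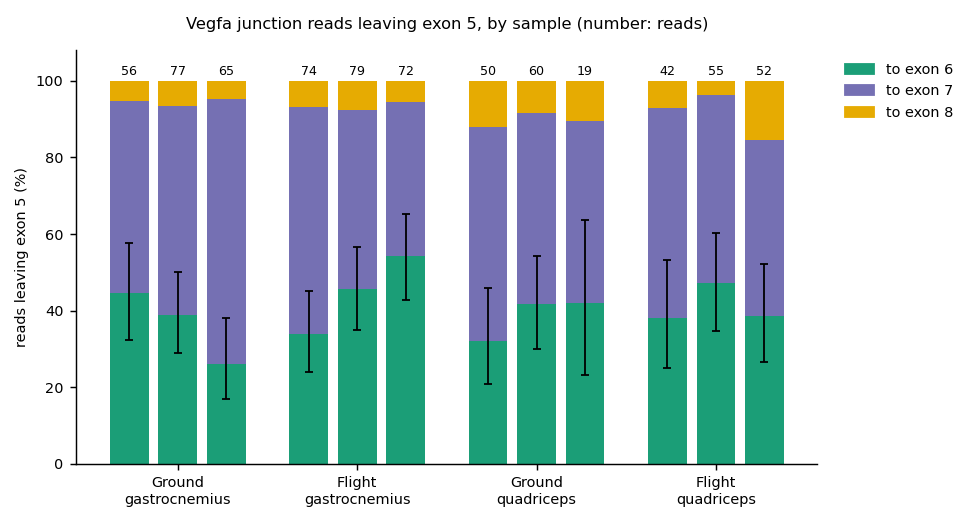
Percent of Vegfa junction reads leaving exon 5 that join exon 6, exon 7 or exon 8, as 1 stacked bar per sample in the 4 groups, with the number of reads above it and a whisker for the 95% Wilson interval of the exon 6 share. Exon 8 has the lowest share in all groups, and Flight and Ground samples overlap for each junction in both muscles.

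As events, exon 6 between exons 5 and 7 had a PSI of 36.1 ± 8.89% on the ground and 45.1 ± 8.99% after flight in the gastrocnemius (exact permutation p = 0.3, adjusted p = 0.759 in limma). In the quadriceps it had 38.4 ± 3.78% and 44.2 ± 2.03%, with no overlap between the groups (exact permutation p = 0.1, the smallest possible, adjusted p = 0.907). It was 1 of the 5 kept events to do so there, beside 12.5% of all 2062 kept events. The gastrocnemius groups overlapped. Exon 7 between exons 5 and 8 had a PSI of 94.1 ± 0.687% and 92.3 ± 1.05% in the gastrocnemius (no overlap, exact permutation p = 0.1) and of 89.4 ± 2.78% and 89.9 ± 6.43% in the quadriceps. In the gastrocnemius it was 1 of the 6 kept events without overlap, beside 16.2% of all 2118. The exon 7 event also counts the junction from 7 to 8, which transcripts with both exons make. Its PSI is therefore not the share of exon 5 reads that join exon 7. Its skipping reads in the gastrocnemius were 3 to 6 per sample. The mutually exclusive event counted exon 6 at 17.1 ± 4.005% and 21.9 ± 3.98% in the gastrocnemius and at 18.4 ± 6.44% and 21.5 ± 2.51% in the quadriceps. The other 2 Vegfa events had adjusted p from 0.816 to 0.972 over both muscles.

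The Hif1a event pairs exons at chr12:73928214-73928298 and chr12:73930657-73930769 on the plus strand as mutually exclusive. All 3 coding transcripts in GENCODE vM21 hold both in a row, and 0 of 5 annotated transcripts hold exactly 1 of them. Its reads were few in the gastrocnemius, 0 to 4 for the first exon and 6 to 16 for the second, which gave a PSI of 21.1 ± 18.4% on the ground and 15.6 ± 15.4% after flight (exact permutation p = 1, adjusted p = 0.9503). In the quadriceps its ground samples did not reach the minimum of 10 reads on average, so it was not tested there.

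Across the 12 libraries, the genes whose log2(TPM + 1) followed a regulator most closely were ranked by Pearson r, over points that share mice, muscles and library scaling. Tfam was followed most closely, by Slc8a1 (r = 0.969, Spearman rho = 0.951), Srp68 (0.966, 0.916) and Txnl1 (0.964, 0.909). Ppard came next with Med26 (0.95, 0.916), Pld1 (0.945, 0.937) and Lats2 (0.941, 0.902). For the coactivators the genes were Mafk (0.889, 0.902), Ppp1r12b (0.889, 0.937) and Spns2 (0.848, 0.797) with Ppargc1a, and C130074G19Rik (0.919, 0.664), Sema6a (0.910, 0.923) and Rnf213 (0.895, 0.748) with Ppargc1b. Ppara was nearest to Mknk2 (0.900, 0.685), Zfp503 (0.889, 0.552) and Vgll2 (0.883, 0.706), where rho was lower than r. Esrra was nearest to Akap1 (0.900, 0.874), 2410015M20Rik (0.873, 0.888) and AI413582 (0.863, 0.951), Esrrg to Rftn1 (0.908, 0.902), Acd (0.892, 0.846) and Gm8741 (0.887, 0.865), and Nrf1 to Ssbp3 (0.915, 0.902), Spag1 (0.910, 0.874) and Lrch1 (0.907, 0.937). Hif1a went with Tmem68 (0.904, 0.818), Bend3 (0.898, 0.825) and Zfp457 (0.894, 0.860). Vegfa had the loosest set, Adamtsl5 (0.869, 0.783), Ahnak2 (0.844, 0.811) and Slc47a1 (0.839, 0.811). Each set holds the best 3 of 10480 other genes, so a high r is built into the choice.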

How the data were processed

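RNA of 12 muscle samples was sequenced as single-end stranded mRNA libraries. The authors made TPM per gene with kallisto (0.46.0) and tximport, and aligned reads to mm10 (GRCm38) with STAR (2.7.1a), per the labels and the study's methods. Of 36008 deposited gene rows, 152 have no symbol, and no depth is kept in TPM. The deposited rMATS-turbo tables hold inclusion and skipping junction reads and effective lengths, listed for 3 samples per cell without mouse names. Their groups were taken from the comparison each table is deposited for. The tables also hold PSI, PSI differences, p-values and false discovery rates of the authors' own comparison, which were not used here. The authors called genes with DESeq2 (1.26.0), which needs counts and was not applied to TPM.

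Here limma (3.58.1, R 4.3.3) was fitted with a trend to log2(TPM + 1) for genes with TPM above 5 in at least 1 library, with two-sided p-values and Benjamini-Hochberg adjustment. Flight was compared with Ground over the 6 libraries of a muscle. Muscles and the interaction were compared over all 12 with the mouse as a block, since the labels give both muscles of a mouse the same number. Deviations of the paired libraries from their group means correlated at 0.333 to -0.119. For splicing, PSI was recomputed from reads and lengths. Tested were events whose junction reads averaged over 10 in each group and whose PSI was not beyond 0.05 or 0.95 on the same side in every sample, by limma on the log2 ratio of length-scaled inclusion to skipping reads, with 0.5 added to each count, and by exact permutation. Both fits were run on simulated data with known changes, where a minimum of recovered changes was required of the expression fit only. These runs do not show what the splicing fit can find in events with few reads. Promoters came from RefSeq (GRCm38.p6) and exons from GENCODE vM21. No window was read for Ppargc1b.

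The 10 regulators, the lists and the markers were chosen with earlier results of these data known. Named were all regulators, any called list gene, up to 4 list genes with the smallest p per flight comparison, a few list genes chosen for their role (Pdk4, Cpt1b, Angptl4, Ucp3, Perm1, Nrip1, Rxrg, Gabpa, Epas1, Arnt, Egln3, Vegfb, Flt1 and Kdr), and the 3 genes most like each regulator.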

Additional observations from a re-analysis of the deposited data

How the results depend on the processing

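No regulator was called between Flight and Ground, and none in the interaction, under a pseudocount of 0.1, no filter on low values, median-ratio rescaling, no trend, 1 fit over all libraries or no block where these applied, or with any 1 mouse left out, and no Vegfa or Hif1a event was called under the alternatives for splicing. The muscle calls were less stable. The count called on the ground (Ppara) was 0 without the filter and 0 with no replicate block, and so was the count after flight (Ppargc1b), and both ranged from 0 to 1 with a mouse left out. In the interaction the count at an unadjusted p under 0.05 was 0 with no replicate block and 1 to 4 with a mouse left out. That count on the ground between muscles was 7 under median-ratio rescaling, which moves the median of all genes from -0.12 to -0.03. Rescaling also turned the sign of Esrra on the ground (0.0918), Ppard after flight (0.0065) and Hif1a after flight (0.050). The blocked and unblocked fits gave no other difference in calls of the regulators.

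With 1 mouse left out, the count at an unadjusted p under 0.05 was 1 to 3 in the gastrocnemius (3 without M08 or M12) and 1 to 3 in the quadriceps (1 without M08, M12 or M20). Values without a call crossed 0 for Ppargc1a (-0.78 to 0.0540), Ppard (-0.0930 to 0.31), Tfam (-0.0330 to 0.0887) and Hif1a (-0.24 to 0.0330) in the gastrocnemius, and for Ppargc1b (-0.35 to 0.14), Ppara (-0.16 to 0.21) and Esrrg (-0.11 to 0.17) in the quadriceps. In the interaction they did so for Esrra (-0.0787 to 0.20) and Vegfa (-0.0876 to 0.14). Between the muscles they did so for Ppargc1b (-0.0119 to 0.19) and Esrra (-0.0562 to 0.0715) on the ground, and for Ppargc1a (-0.36 to 0.0488), Esrra (-0.0806 to 0.20), Nrf1 (-0.11 to 0.15) and Hif1a (-0.12 to 0.11) after flight. Differences in PSI crossed 0 for the Hif1a event (-16.0 to 0.636%) and for Vegfa exon 6 between exons 5 and 8 (-3.31 to 2.47%) in the gastrocnemius. In the quadriceps they crossed 0 for exon 7 (-2.15 to 4.10%), exon 6 between exons 5 and 8 (-0.938 to 14.6%) and the shorter exon 6 (-0.851 to 3.49%). The cause of these changes was not tested beyond the samples and genes that each setting removes. With 3 mice per group, differences of the size seen for most regulators are within the error.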
